A study of Mus musculus with 4 samples.

Results

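Myc and Mycn are a pair of related proto-oncogenes, and their loci were examined in ChIP-seq libraries of mouse embryonic stem cells. Each locus was a fixed window of 35 kb on the mm9 assembly, placed by gene position and not by a measured value. Earlier results of these data were known when the genes and windows were chosen. The Myc window ran along chromosome 15 from 61800001 to 61835000, with the transcription start site (TSS) taken near 61816900 on the plus strand. The Mycn window ran along chromosome 12 from 12930001 to 12965000, with the TSS taken near 12948700 on the minus strand. Both TSS positions are approximate. The 2 windows held 12 of the 37520 peaks that the authors deposited: 3 LSD1 peaks, 9 H3K4me2 peaks and 0 IgG peaks. No mm9 annotation was used here, so peaks are placed by their distance from the TSS along the gene's strand and not by exon or intron.

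The cells were R1 embryonic stem cells of 129SV origin, grown on gelatin with leukaemia inhibitory factor at 1000 U/ml and used between passages 13 and 18. The labels name no genetic change or other treatment, and all groups came from the same kind of cells. The groups were Input (chromatin DNA without immunoprecipitation), IgG (control antibody), LSD1 and H3K4me2 (dimethylated lysine 4 of histone H3), with 1 library each. They held 3801082, 4755619, 5833862 and 6416657 reads in that order, and libraries are compared below after scaling to a common depth (RPM, reads per 1000000 reads of the library). Each group is a single library, so differences have no replicate check, p-values are left out, and each 95% interval covers counting error only. The catalogue number listed with the LSD1 antibody is that of a known H3K27me3 antibody from a different maker, so LSD1 is the labelled name and its target was not checked.

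MYC proteins are basic helix-loop-helix leucine-zipper transcription factors that pair with MAX and bind E-box DNA, and they drive growth, ribosome production and cell division. In mouse embryonic stem cells both Myc (c-Myc) and Mycn (N-Myc) are expressed, support self-renewal and can partly replace each other. LSD1 (Kdm1a) is an enzyme that erases this dimethylation and the monomethylated form, often within the CoREST complex. H3K4me2 marks promoters, the start of transcribed regions and enhancers. In the RefSeq gene order of another assembly, GRCm38, Myc lies between the noncoding genes D030024E09Rik and Pvt1, and Mycn between the noncoding genes Gm40271 and Gm35208.

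The Mycn promoter is printed because the results below turn on how reads are spread on either side of this start. RefSeq promoters were matched by symbol for 1 of the 2 genes, Mycn, and that of Myc was not matched. The sequence covers the 250 bases before the RefSeq start, at GRCm38.p6 chr12:12941837-12942086 on the minus strand, so its coordinates do not compare with the mm9 positions elsewhere. Capitals mark matches to GGGCGG (GC box) and to TTTNGCGC (a form of the E2F site) on either strand.
Mycn: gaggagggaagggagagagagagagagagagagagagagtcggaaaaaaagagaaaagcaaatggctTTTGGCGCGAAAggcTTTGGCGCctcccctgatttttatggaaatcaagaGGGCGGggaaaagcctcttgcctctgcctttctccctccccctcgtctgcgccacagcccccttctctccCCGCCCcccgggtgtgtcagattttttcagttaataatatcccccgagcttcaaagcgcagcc

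The GC box, a binding sequence of SP1, matched at 133 bases before the start on the printed strand and at 63 bases on the other strand. It occurs in 32.7% of the 32851 RefSeq promoters over the same stretch. TTTNGCGC, which was chosen after the sequence was seen, matched 3 times at 183, 179 and 168 bases before the start, and the first 2 matches overlap on opposite strands. It occurs in 1.13% of the promoters. The E-box CACGTG, which MYC proteins themselves bind, had no match on either strand and occurs in 6.02% of promoters. The TATA box TATAAA had no match either and occurs in 12.4%. The same held for another form of the E2F site, GGCGGGAA, which occurs in 1.86%. The stretch held 11 CG dinucleotides against a median of 6, and its GC content was 54.8% against a median of 52.4%.

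Both genes carried a dense group of H3K4me2 peaks around the TSS, with LSD1 peaks beside or within them. Myc had 4 H3K4me2 peaks spanning 5753 bp and 2 LSD1 peaks, and Mycn had 5 H3K4me2 peaks spanning 7370 bp and 1 LSD1 peak. The LSD1 peaks stood on opposite sides of the start: downstream and inside an H3K4me2 peak at Myc, upstream and between H3K4me2 peaks at Mycn. Of all tiles of 35 kb with Input reads, 3.38% held at least 4 H3K4me2 peaks and 5.42% held at least 1 LSD1 peak. The tiles were not placed on genes, as the 2 windows were, so these shares are no like background for them. The windows were also high in Input, with 85 reads at Myc and 86 at Mycn against a tile median of 52. As many or more were in 2.77% and 2.38% of tiles.

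**Figure D1:**
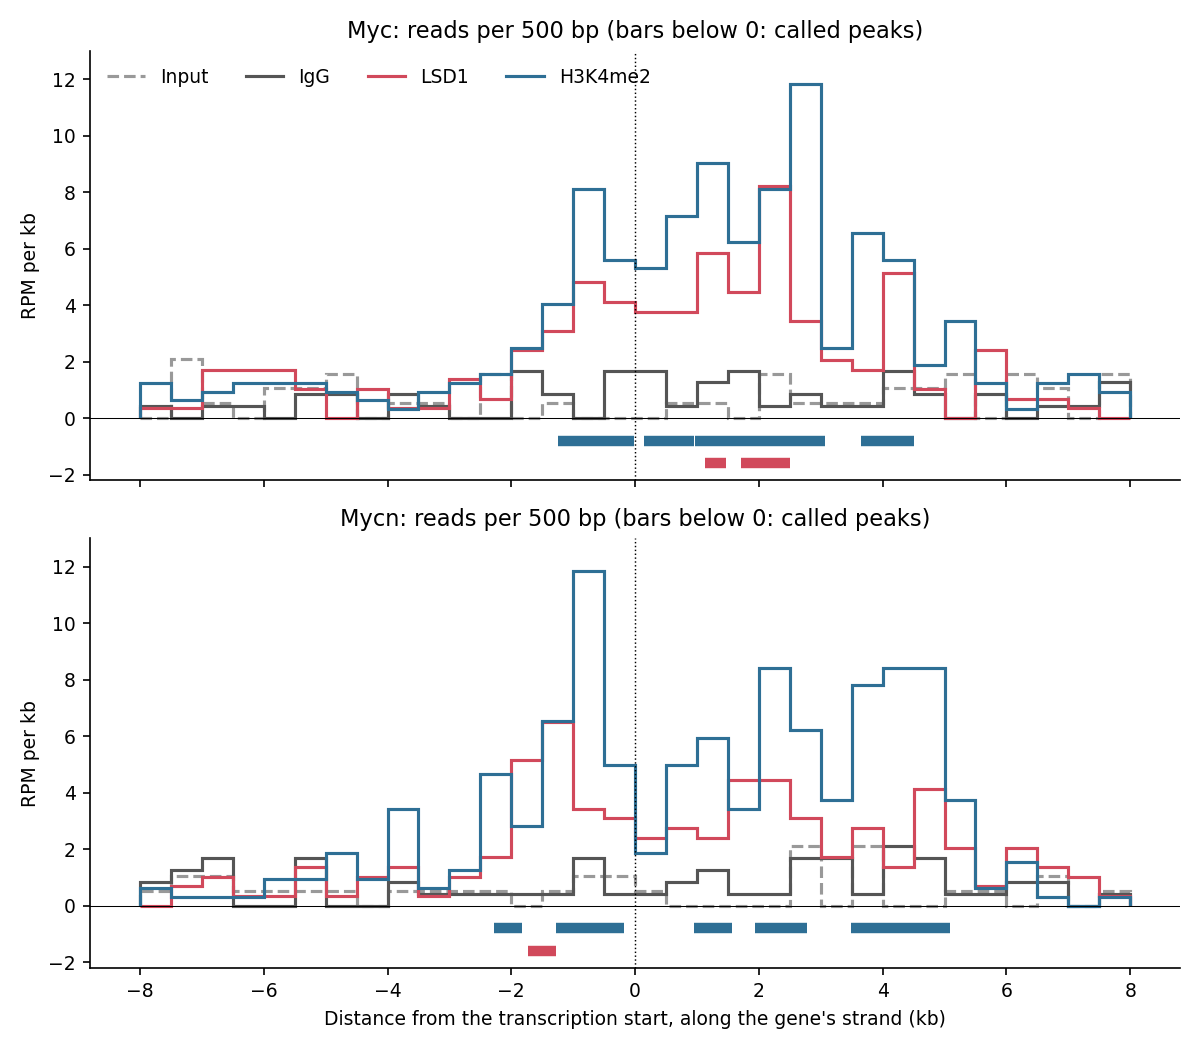
Reads per 500 bp in RPM per kb (vertical axis) against distance from the TSS in kb along the gene's strand (horizontal axis), for Myc and Mycn and the 4 libraries, with called H3K4me2 (blue) and LSD1 (red) peaks as bars below 0. LSD1 is highest 2000 to 2499 bp downstream at Myc and 1001 to 1500 bp upstream at Mycn.

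Around the TSS of Myc both ChIP libraries exceeded IgG. Within 2 kb on either side (4001 bp) Input had 3 reads, IgG 22, LSD1 94 and H3K4me2 154. LSD1 was the lower of both ChIP libraries and stood above each control. In RPM, LSD1 exceeded IgG 3.48-fold (2.17 to 5.82) and H3K4me2 exceeded IgG 5.19-fold (3.31 to 8.52). These ratios share the IgG library and are not independent. IgG itself was above Input here, 5.86-fold (1.76 to 30.6), but not over the whole Myc window, where 102 IgG and 85 Input reads gave a ratio of 0.959 (0.712 to 1.30). Over all H3K4me2 peaks IgG exceeded Input 2.09-fold and over all LSD1 peaks 3.21-fold, both within the interval at the Myc TSS. The part of this control difference in the ratios at Myc was not tested.

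Around the TSS of Mycn the 4 libraries stood in the same order. Within 2 kb Input had 6 reads, IgG 14, LSD1 88 and H3K4me2 136. LSD1 exceeded IgG 5.12-fold (2.90 to 9.76) and H3K4me2 exceeded IgG 7.20-fold (4.15 to 13.5). IgG over Input was 1.86 (0.673 to 5.92), an interval that includes 1. Over the 23437 H3K4me2 domains (H3K4me2 peaks joined within 1 kb), 4 kb around the middle gave an LSD1 to IgG interval above 1 in 70.1% and an H3K4me2 to IgG interval above 1 in 95.2%, so such intervals at both genes are the common case.

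The loci were high among those domains in LSD1 reads, with the caution that the loci were centred on the TSS and the domains on their middle. A fixed 4 kb also does not adjust for width, and the domains at the loci were wide. By width they stood in the upper 0.994% for Myc and in the upper 2.58% and 15% for Mycn. The 94 LSD1 reads at Myc and the 88 at Mycn compare with a domain median of 43, and 1.79% and 2.88% of domains had as many or more. For H3K4me2 the median was 74 reads, and 5.09% and 8.47% of domains reached the counts of Myc and Mycn. With 0.5 reads added to each count, the LSD1 to IgG ratio was 3.42 at Myc and 4.97 at Mycn against a median of 2.25, and 14.4% and 2.51% of domains were at or above them. Relative to H3K4me2, LSD1 was less unusual. That ratio, taken in the same way, was 0.673 at Myc and 0.713 at Mycn against a median of 0.618. At or above them were 36% and 26% of domains. An LSD1 peak touched the 4 kb of 18.6% of domains, and LSD1 peaks touched the 4 kb at both genes.

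The level of each ChIP at Mycn did not differ from that at Myc beyond counting error. LSD1 reads within 2 kb of the TSS gave a Mycn to Myc ratio of 0.936 (0.692 to 1.27), and H3K4me2 reads gave 0.883 (0.696 to 1.12). Over the whole windows LSD1 had 271 reads at Myc and 279 at Mycn, with a ratio of 1.03 (0.868 to 1.22), and H3K4me2 had 437 and 449, with a ratio of 1.03 (0.899 to 1.18). The LSD1 to IgG ratio at the TSS was 1.47 times as high at Mycn (0.670 to 3.31). Differences of up to the ends of these intervals were not detectable at this depth.

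**Figure D2:**
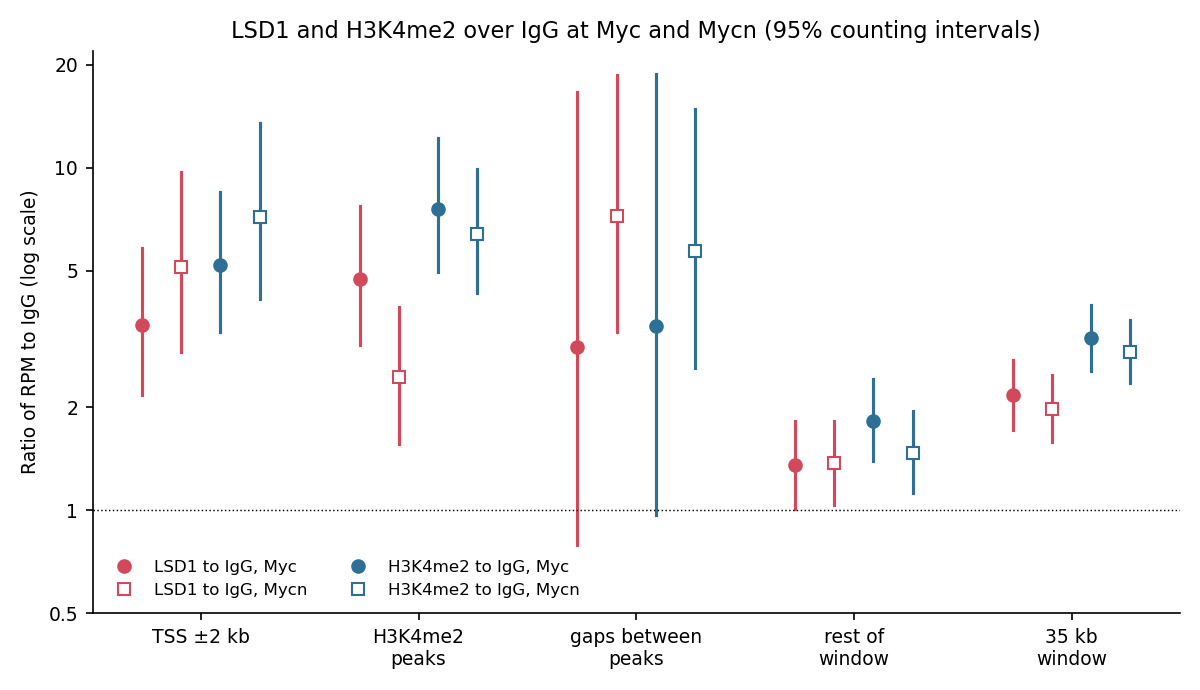
Ratio of RPM to IgG on a log scale (vertical axis) for LSD1 (red) and H3K4me2 (blue) at Myc (filled circles) and Mycn (open squares) in 5 regions of each window (horizontal axis). Lines are 95% counting intervals. In the H3K4me2 peaks LSD1 is at 4.75 for Myc and 2.45 for Mycn, whereas H3K4me2 is at 7.61 and 6.42.

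At Myc the H3K4me2 peaks lined up from 1248 bp upstream to 4504 bp downstream of the TSS. The upstream peak, from 61815652 to 61816875, held 0 Input, 5 IgG, 33 LSD1 and 50 H3K4me2 reads. A gap of 168 bp at the TSS separated it from a peak 144 to 959 bp downstream with 1, 3, 16 and 36 reads. The widest followed after 14 bp, from 61817874 to 61819970, with 5 Input, 10 IgG, 65 LSD1 and 113 H3K4me2 reads. It ranked in the upper 2.45% of all H3K4me2 peaks by width and in the upper 2.39% by H3K4me2 reads. The last, 3643 to 4504 bp downstream, held 2 Input, 5 IgG, 20 LSD1 and 37 H3K4me2 reads. The 4 peaks formed 1 domain of 5753 bp, which ranked 233rd by width, in the upper 0.994% of domains.

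Both LSD1 peaks of Myc lay inside the widest H3K4me2 peak. The nearer, 1127 to 1475 bp downstream (61818027 to 61818375), had 1 Input, 2 IgG, 15 LSD1 and 21 H3K4me2 reads, and LSD1 exceeded IgG 6.11-fold (1.42 to 55.1). The farther, 1708 to 2501 bp downstream (61818608 to 61819401), had 3 Input, 4 IgG, 33 LSD1 and 39 H3K4me2 reads, and LSD1 exceeded IgG 6.72-fold (2.39 to 26.1). At 794 bp it ranked in the upper 7.50% of LSD1 peaks by width, and in the upper 8.81% by LSD1 reads. Only 232 bp with 4 LSD1 reads lay between the pair, and 16.6% of all LSD1 peaks had another within 1 kb. The nearest other LSD1 peak was 2.34 Mb from this pair and, at Mycn, 38.1 kb from its LSD1 peak. Among the 3306 clusters of LSD1 peaks, joined within 35 kb, the median distance to the next was 112.9 kb. As far or farther were 1.88% of clusters for Myc and 96.4% for Mycn, a measure chosen after the data were seen. The joining leaves no distance of 35 kb or less, so the share for Mycn is largely set by it.

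The gap at Myc began only 24 bp upstream of an approximate TSS, so whether the true start was uncovered there is uncertain. At Mycn the H3K4me2 peaks also left the start itself uncovered. The peak upstream of it, 176 to 1276 bp from the TSS (12948876 to 12949976), held 3 Input, 6 IgG, 23 LSD1 and 69 H3K4me2 reads and was in the upper 2.60% of all H3K4me2 peaks by reads per bp. Downstream of it followed a gap of 1128 bp that held the TSS, with 3 Input, 3 IgG, 20 LSD1 and 24 H3K4me2 reads. Beyond the gap lay 3 peaks, at 953 to 1559, 1938 to 2770 and 3484 to 5096 bp downstream, with 22, 45 and 81 H3K4me2 reads. The same 3 peaks held 8, 18 and 26 LSD1 reads and 3, 6 and 10 IgG reads. The fifth peak, 1832 to 2273 bp upstream, was the smallest, with 442 bp, 17 H3K4me2 reads and 6 LSD1 reads.

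At the start of Mycn H3K4me2 was below its level in the H3K4me2 peaks, as the missing call there implies. LSD1 was near its own level in those peaks, which leave out its LSD1 peak at 6.90 RPM per kb. In the gap of 1128 bp H3K4me2 was at 3.32 RPM per kb against 7.93 in the H3K4me2 peaks of Mycn, and LSD1 was at 3.04 against 3.02. LSD1 was lower beside the start than in some bins farther out and near the level of others. The 500 bp on either side of the TSS held 9 and 7 LSD1 reads. The bins 1001 to 1500 bp upstream, which overlaps the called LSD1 peak, and 1500 to 1999 bp downstream held 19 and 13. Those 501 to 1000 bp upstream and 500 to 999 and 1000 to 1499 bp downstream held 10, 8 and 7. Within 250 bp on either side of the start, H3K4me2 had 7 reads, LSD1 8, IgG 0 and Input 3. LSD1 over Input was 1.74 (0.417 to 10.2) there, an interval that includes 1. At Myc the same 501 bp held 13 H3K4me2, 9 LSD1, 4 IgG and 0 Input reads. At neither gene was the highest 500 bp of either ChIP at the start. For H3K4me2 that was 2500 to 2999 bp downstream of Myc and 501 to 1000 bp upstream of Mycn, with 38 reads each.

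The LSD1 peak of Mycn, 1281 to 1727 bp upstream of the TSS (12949981 to 12950427), fell wholly into the gap between the H3K4me2 peaks on either side. It held 18 LSD1 reads and 4 H3K4me2 reads, and 0 reads in IgG and Input. Against a floor of 3 reads, LSD1 was at least 4.89-fold over IgG and at least 3.91-fold over Input; the counting error of the 18 reads is not in these bounds. Of all LSD1 peaks, 8.21% held no IgG read. LSD1 exceeded H3K4me2 in RPM 4.95-fold (1.63 to 20.1), whereas at the LSD1 peaks of Myc this ratio was 0.786 (0.377 to 1.60) and 0.931 (0.567 to 1.52).

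Few LSD1 peaks of the genome had this arrangement. Of the 5106, 91.7% touched an H3K4me2 peak, as did both of Myc, and 2.90% had an LSD1 to H3K4me2 interval above 1. Only 9 (0.176%) lay wholly inside a gap of up to 1 kb between neighbouring H3K4me2 peaks, and by LSD1 to H3K4me2 that of Mycn ranked first of the 9. By the same ratio, with 0.5 reads added, it ranked 49th of all LSD1 peaks. Its 4 H3K4me2 reads were less unusual among the 422 LSD1 peaks that touched no H3K4me2 peak. Their median was 10 H3K4me2 reads, and 15.2% of them had 4 or fewer. The Mycn peak was not strong in LSD1 itself: the median LSD1 peak had 19 reads and a width of 461 bp, against 18 reads and 447 bp. It is absent from the upper 50% of the list by reads per bp. The LSD1 peaks were called on these LSD1 reads and the gap was left by the H3K4me2 calls, so both counts are a description of how the peak was found.

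**Figure D3:**
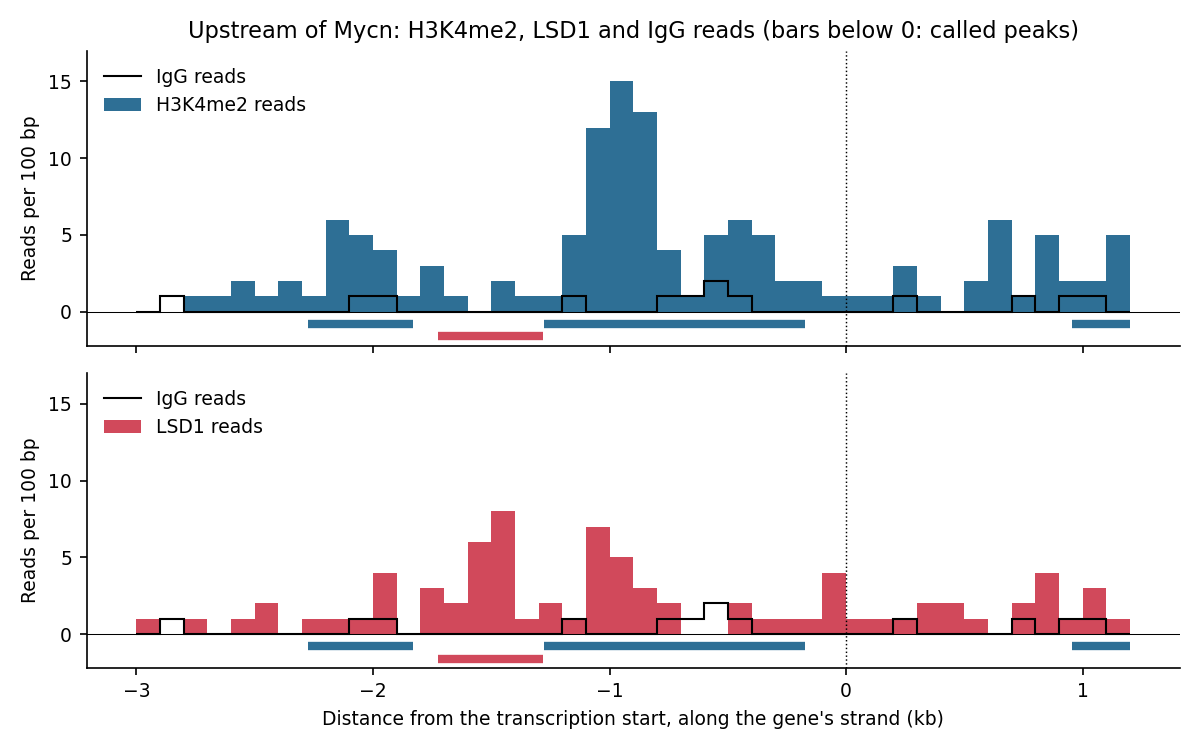
Reads per 100 bp (vertical axes) of H3K4me2 (upper) and LSD1 (lower), with IgG as a black outline, against distance from the Mycn TSS in kb (horizontal axis), and called peaks as bars below 0. Between 1401 and 1600 bp upstream LSD1 has 14 reads and H3K4me2 has 2.

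**Figure D4:**
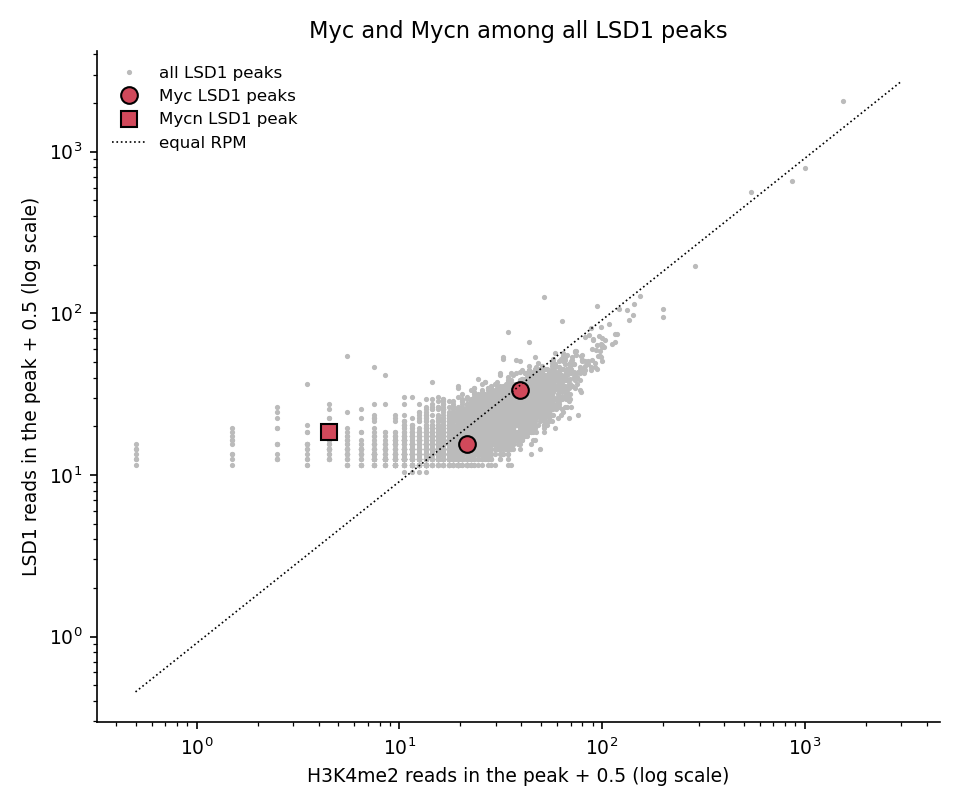
LSD1 reads (vertical axis) against H3K4me2 reads (horizontal axis), each plus 0.5 on a log scale, in all 5106 LSD1 peaks (grey) and in those of Myc (circles) and Mycn (square), with a dotted line at equal RPM. The Mycn peak, with 18 LSD1 and 4 H3K4me2 reads, lies above the line, and those of Myc lie at or below it.

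LSD1 was spread differently over the H3K4me2 groups of the loci. From the first to the last H3K4me2 peak LSD1 had 145 reads at Myc and 143 at Mycn, a Mycn to Myc ratio of 0.986 (0.777 to 1.25), and H3K4me2 had 250 and 288, a ratio of 1.15 (0.969 to 1.37). Inside the called H3K4me2 peaks, 4999 bp at Myc and 4596 bp at Mycn, H3K4me2 had 236 and 234 reads. LSD1 had 134 reads (4.59 RPM per kb) in those of Myc and 81 (3.02 RPM per kb) in those of Mycn. Relative to H3K4me2, LSD1 in the peaks was 0.624 (0.501 to 0.775) at Myc and 0.381 (0.292 to 0.492) at Mycn. These are descriptions of regions that the calls set, since both LSD1 peaks of Myc fell inside them and that of Mycn fell outside. Scaled to IgG, with 23 and 27 reads, the LSD1 level in the peaks was 0.516 times as high at Mycn, and the interval (0.263 to 1.005) included 1. H3K4me2 peaks of the genome that touched an LSD1 peak had an LSD1 to H3K4me2 ratio of 0.637 (0.633 to 0.641), and those that touched none had 0.480 (0.478 to 0.481). The latter lies within the interval of Mycn, so its peaks did not differ beyond counting error from others without an LSD1 peak.

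Single peaks were compared with the whole lists. All 9 H3K4me2 peaks had an H3K4me2 to IgG interval above 1, against 97.0% of all H3K4me2 peaks, which says nothing particular about these loci. The LSD1 to IgG interval lay above 1 in 4 of the 4 peaks of Myc and in 1 of the 5 of Mycn, against 54.4% of all. The exception at Mycn was the peak 176 to 1276 bp upstream, at 3.12 (1.24 to 9.38). The other 4 lay between 2.12 and 2.45, with lower ends of 0.437, 0.522, 0.930 and 0.989. At Myc the lower ends ran from 1.19 to 2.7, so several of these calls lay close to the limit of 1. An LSD1 peak touched 1 of the 4 H3K4me2 peaks of Myc and 0 of the 5 of Mycn, against 14.2% of all. For the 3 LSD1 peaks the LSD1 to IgG interval lay above 1 in each, as it did in 89.6% of LSD1 peaks.

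**Figure D5:**
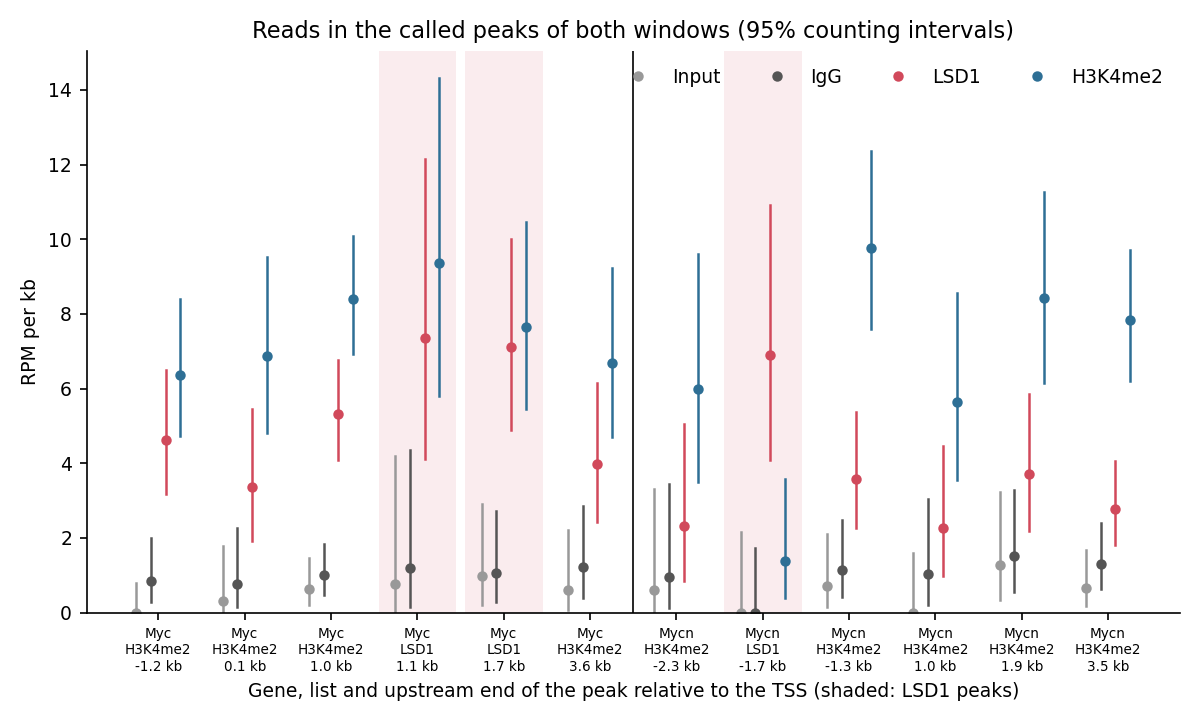
RPM per kb (vertical axis) of the 4 libraries in each of the 12 called peaks of Myc and Mycn (horizontal axis, ordered from upstream to downstream within each gene; LSD1 peaks shaded), with 95% counting intervals. In the 5 H3K4me2 peaks of Mycn LSD1 lies between 2.26 and 3.70, and in its LSD1 peak at 6.90.

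LSD1 reads continued through the gaps between the H3K4me2 peaks of Mycn, a comparison chosen after the values were seen. The gaps, 2774 bp in all, held 62 LSD1, 54 H3K4me2, 7 IgG and 3 Input reads. LSD1 was at 3.83 RPM per kb in the gaps and 3.02 in the peaks, whereas H3K4me2 was at 3.03 and 7.93 and IgG at 0.531 and 1.24. In the gaps LSD1 was thus 7.22-fold over IgG (3.30 to 18.7), and in the peaks 2.45-fold (1.56 to 3.93), the first 2.94 times the second (1.15 to 8.52), and the lower IgG level had the larger share in this. The gap with the LSD1 peak held 21 of the 62 LSD1 reads and 0 of the 7 IgG reads. Without it LSD1 over IgG was 4.77 (2.12 to 12.6), and its 1.94 times over the peaks (0.744 to 5.75) included 1. LSD1 relative to H3K4me2 was 1.26 (0.863 to 1.85) in the gaps, 3.31 times its value in the peaks (2.07 to 5.29), and 2.51 times (1.49 to 4.22) without the gap with the LSD1 peak. Gaps are where H3K4me2 was not called, so this ratio is a description. Genome-wide the LSD1 to H3K4me2 ratio was also higher in gaps of 100 bp to 1 kb, 0.942 (0.929 to 0.956), than in H3K4me2 peaks, 0.514 (0.512 to 0.515). Without the gap with the LSD1 peak, the Mycn gaps stood at 0.960 (0.615 to 1.49), an interval that includes the genome value for gaps.

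The gaps of Myc, 754 bp in all, held 11 LSD1, 14 H3K4me2, 3 IgG and 2 Input reads. LSD1 over IgG was 2.99 (0.790 to 16.7), too few reads to place these gaps above or below the peaks of Myc. Nor were they apart from those of Mycn, whose LSD1 to IgG ratio was 2.38 times as high (0.346 to 12.7). Over all 6267 gaps of 100 bp to 1 kb in the genome LSD1 exceeded IgG 2.26-fold (2.21 to 2.30), less than the 3.38-fold (3.36 to 3.40) of all H3K4me2 peaks.

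Of the 5 gaps of that size at the loci, 2 had an LSD1 to IgG interval above 1, both at Mycn, against 9.75% of all such gaps. The gap with the LSD1 peak, 1277 to 1831 bp upstream, held 21 LSD1 and 7 H3K4me2 reads and 0 IgG reads. Of the 21 LSD1 reads, 18 lay in the LSD1 peak, which was called on them. The LSD1 to H3K4me2 ratio of this gap was 3.30 (1.35 to 9.19), the only interval of the 5 above 1, against 2.70% of all such gaps. Only 9 LSD1 peaks lay wholly inside gaps of up to 1 kb. The shares of all gaps are thus no like comparison for this gap, and its 2 intervals are a description. The other gap with an LSD1 to IgG interval above 1, 1560 to 1937 bp downstream, held no LSD1 peak. It had 10 LSD1, 6 H3K4me2 and 0 IgG reads. Both LSD1 to IgG intervals were taken with 0 IgG reads and without the floor of 3. Their lower ends were 4.2 upstream and 1.83 downstream.

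The balance of reads upstream and downstream of the TSS differed with the distance taken. At Myc the 5 kb downstream held 206 H3K4me2 reads against 83 in the 5 kb upstream, a ratio of 2.48 (1.92 to 3.24), and LSD1 had 115 against 53, a ratio of 2.17 (1.55 to 3.06). Within 2 kb of Myc H3K4me2 gave 1.37 (0.983 to 1.91) and LSD1 gave 1.24 (0.809 to 1.91), both including 1. At Mycn H3K4me2 had 190 reads in the 5 kb downstream against 125 upstream, a ratio of 1.52 (1.21 to 1.92). Within 2 kb of Mycn it ran the other way, with 52 downstream against 84 upstream, a ratio of 0.619 (0.429 to 0.885). LSD1 at Mycn had 86 against 70 over 5 kb and 35 against 53 over 2 kb, and its ratios of 1.23 (0.886 to 1.71) and 0.660 (0.418 to 1.03) included 1. IgG at Mycn had 26 against 12 reads over 5 kb, a ratio of 2.17 (1.05 to 4.71), so that H3K4me2 over IgG was 5.42 (3.58 to 8.51) downstream and 7.72 (4.27 to 15.3) upstream. The part of IgG in the downstream lean of Mycn was not tested.

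Outside the groups of H3K4me2 peaks LSD1 stood little above IgG and not above Input beyond counting error. In the remaining 29247 bp of the Myc window Input had 75, IgG 76, LSD1 126 and H3K4me2 187 reads, and in the remaining 27630 bp at Mycn 71, 81, 136 and 161. LSD1 over IgG was 1.35 (1.01 to 1.82) at Myc and 1.37 (1.03 to 1.83) at Mycn, and over Input 1.10 (0.816 to 1.48) and 1.25 (0.930 to 1.69). Genome-wide, reads outside all called peaks gave 0.924 (0.923 to 0.925) for LSD1 over IgG, below both of the intervals over IgG here. H3K4me2 in the same stretches exceeded IgG 1.82-fold (1.39 to 2.41) at Myc and 1.47-fold (1.12 to 1.95) at Mycn. It exceeded Input 1.48-fold (1.12 to 1.96) and 1.34-fold (1.01 to 1.80). No IgG peak lay in either window. An H3K4me2 peak started 573 bp past the Myc window with 22 H3K4me2 and 3 LSD1 reads. The nearest other LSD1 peak to Mycn, 36.8 kb downstream of its TSS, had 22 LSD1, 37 H3K4me2 and 4 IgG reads.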

How the data were processed

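Per the labels' protocols, 36-base reads came from fragments of about 200 bp, and per the submitters' processing notes they were placed on mm9. Aligner, read filters and peak caller: not given in the sources used here. The authors deposited aligned reads, used here as counts of lines, and peak positions without scores, 1 list each for IgG, LSD1 and H3K4me2. Within each library no position was read more than once on the same strand. mm9 derives from another mouse strain than the 129SV cells.

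Read starts were moved 100 bp along their strand and counted by region. Ratios of RPM carry exact binomial 95% intervals conditional on both counts, and ratios of ratios carry conditional odds ratio intervals. These intervals cover counting error only and are not adjusted for the number of regions. For ratios given as bounds, a control count of 0 was set to a floor of 3 reads. This is 0.631 RPM in IgG and 0.789 in Input. Intervals did not use the floor: with 0 control reads they had a lower end only. Overlap meant at least 1 bp. The ratio interval was tested on simulated data. Scripts ran in Python 3.11.15 with scipy 1.17.1, pandas 2.3.3, numpy 2.4.6 and, for figures, matplotlib 3.10.9.

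The genes, windows, lists and alternatives were chosen with earlier results of these data known. Named regions were all peaks of the 3 lists in both windows and the nearest LSD1 peak outside them; sums over H3K4me2 peaks and over gaps and the isolation of LSD1 peaks were added after seeing the data. The planned genes of the MYC network (Max, Mycl, the Mxd genes and others) were not run, because no mm9 annotation was used here.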

Additional observations from a re-analysis of the deposited data

How the results depend on the processing

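For 16 results 76 alternative values were computed: 63 stayed within the interval of the reported value (a peak count within 1.5 times), 11 moved beyond it, 1 changed direction and 1 lost an interval above 1. The last was LSD1 over IgG in the Mycn gaps against its H3K4me2 peaks, 1.94 without the gap that holds the LSD1 peak. That setting and the one without the reads of LSD1 peaks, 8 values in all, were chosen after seeing the data. Without the reads of LSD1 peaks, LSD1 over IgG at the TSS was 3.36 at Myc and 4.08 at Mycn. Over the whole window, which is mostly outside peaks, LSD1 over IgG was 2.17 at Myc and 1.98 at Mycn, H3K4me2 over IgG was 3.17 and 2.89, and IgG over Input at Myc was 0.959 in place of 5.86 (the cause was not tested). With Input as the control, which had 3 reads at the Myc TSS, LSD1 was at 20.4 and H3K4me2 at 30.4 there. Within 1 kb of the Mycn TSS, which leaves out its LSD1 peak, LSD1 over H3K4me2 was 0.492. Divided by the IgG ratio, Mycn over Myc was 1.47 for LSD1 and 1.39 for H3K4me2, both on few IgG reads. In the upper 50% of the lists by reads per bp, the Mycn window held 3 H3K4me2 peaks and 0 LSD1 peaks. Counts of this size limit every statement on single peaks. No paired analysis was possible because there was 1 library in each group.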
